A study of Mus musculus with 9 samples.

Results

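The small intestine and the colon of healthy mice were compared cell by cell, with 2 single-cell RNA libraries from each organ. After removal of barcodes with more than 15% mitochondrial UMIs or fewer than 200 genes, 14170 cells remained in these 4 libraries (3654 and 5470 in the small intestine libraries 1 and 2, 2615 and 2431 in the colon libraries 1 and 2) of 31759 cells in the 9 libraries of the series, which otherwise hold colon of DSS-treated, Nlrc4-deficient, germ-free and antibiotic-treated mice. All 4 libraries came from untreated wild-type C57BL/6 males of 7 to 8 weeks, and all were labelled CD11b+ cells of the lamina propria, the connective tissue under the gut epithelium. The colon mice were labelled SPF (specific pathogen free), whereas the small intestine mice were labelled normal only, so that housing and organ cannot be told apart. The study's methods describe colon cells sorted on CD45 and CD11b and pooled from several mice, with no number of mice given for a library of the small intestine. Each library is therefore 1 sample whose link to single animals is unknown, and every test below compares 2 samples with 2 and measures the spread between these libraries only. Values in pairs are given in the order library 1 and library 2.

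The lamina propria of both organs holds macrophages, which arise from blood monocytes and take up bacteria and dying cells, and dendritic cells, which carry antigen to the draining lymph nodes. Dendritic cells of type 1 (cDC1, XCR1+) and type 2 (cDC2) sample the tissue, and those that express Ccr7 have matured and are able to migrate to the lymph node. In the lymph node some of them convert vitamin A to retinoic acid with the enzyme encoded by Aldh1a2, and retinoic acid induces the receptor CCR9 on T and B cells, which then home to the small intestine along its chemokine CCL25. Plasma cells of the gut mostly secrete IgA, and eosinophils are residents of the normal gut at every level.

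Interferon-stimulated genes were one of the function lists followed through every cell type, because most of its members had lower levels in the small intestine. Promoters of these genes often hold a repeated GAAA element. The element GAAANNGAAA was searched on both strands in the 250 bases before the start of each gene in the RefSeq promoter table (GRCm38.p6). It was present in 978 of 32851 promoters (2.98%) and in 7 of the 15 list genes that matched the table by symbol (46.7%). The first share counts promoters, whereas the second counts genes with a match in any of their promoters, so the shares differ in unit. For 4 list genes whose levels are given below, 30 bases around a match are printed in the gene's own direction, with the match in capitals.
Ifit1, chr19:34640794-34640823, plus strand, 85 bases before the start: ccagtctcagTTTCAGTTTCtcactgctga
Ifit3, chr19:34583397-34583426, plus strand, 122 bases before the start: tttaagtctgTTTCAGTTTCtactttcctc
Isg15, chr4:156200865-156200894, minus strand, 66 bases before the start: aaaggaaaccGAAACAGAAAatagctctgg
Rsad2, chr12:26456553-26456582, minus strand, 120 bases before the start: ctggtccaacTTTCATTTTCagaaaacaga
The matches of Ifit1, Ifit3 and Rsad2 lie on the opposite strand and that of Isg15 on the gene's strand. A match in these letters is a description and was not tested as a binding site.

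Depth and labels were examined first. The kept cells had a median of 12322.5 and 4722.5 UMIs in the small intestine and 5112 and 5141 in the colon, and small intestine library 1 stood apart because immunoglobulin transcripts made up 28.9% of its UMIs, against 3.10% to 7.43% in the other three. Between 2 and 9 cell barcodes were shared by any pair of libraries. The few epithelial cells that came through the sort matched the organs on most markers. Fabp1, the fatty acid binding protein of enterocytes, stood at 32.3 and 55.5 CPM (UMIs scaled to 1000000 in a library) over all cells of the small intestine and at 0.599 and 0.0496 CPM in the colon, and Car1, a carbonic anhydrase of the large bowel, at 0.573 and 0 CPM against 454 and 1.84 CPM. Of the epithelial genes measured over all cells, 3 of 19 small intestine genes and 2 of 11 colon genes differed against the label. Defa24, a Paneth cell defensin, was also found in the colon, with 2656 and 2475 CPM in the small intestine, 1222 CPM in colon library 1 and 0 in colon library 2. Of its 24508 UMIs in colon library 1, 24202 lay in the 147 epithelial cell-like cells. The CD11b gene Itgam was at 211 to 325 CPM in macrophages of the 4 libraries and at 80.9 to 148 CPM in dendritic cells, but at only 6.70 to 22.0 CPM in B cells and 12.2 to 37.4 CPM in plasma cells, so the labelled CD11b+ sort also passed cells with little Itgam RNA. A share of cells below is thus a share of what the sort passed in each library, and the number of cells of a type in the tissue was not measured.

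Cells were assigned to classes by marker genes (at least 3 markers of a class and a lead of 2 over the next), and the composition of the libraries was compared. Monocyte-like, eosinophil-like, neutrophil-like, fibroblast-like and T cell-like cells took smaller shares of both small intestine libraries than of both colon libraries, while the shares of dendritic, B and macrophage-like cells overlapped between the organs. Shares within a library depend on each other, and plasma cell-like cells at 49.5% of small intestine library 1 lower its other shares. Neutrophil-like cells numbered 57 and 33 against 61 and 73. Shares without plasma cells were not computed, and the part of plasma cells in these separations was not tested. Monocyte-like cells, which in the gut wall are recent arrivals from blood, made up 0.766% and 0.420% of the small intestine cells (28 and 23 cells) and 9.98% and 7.86% of the colon cells (261 and 191 cells). T cell-like cells made up 2.87% and 4.26% against 8.68% and 11.2%. Both organs were separated in these classes, and the smallest colon share lay above the largest small intestine share. Cells with markers of both macrophages and monocytes (0.246% and 0.494% against 5.81% and 0.905%) were separated too. So were the few mast cells (0.109% and 0% against 0.153% and 0.123%), and the remaining classes tested overlapped. Full separation of 2 libraries from 2 has p = 0.333 in an exact permutation test. With 2 libraries a side, however, none of the 14 classes tested with edgeR's quasi-likelihood test on cell numbers was called at an FDR of 0.05 (0% called, against 4 classes with an unadjusted p under 0.05). The lowest adjusted p in edgeR was 0.0662 for monocyte-like cells, with a log2 difference (small intestine minus colon) of −3.91 ± 1.27 (SE), and DESeq2 called 3 classes, with adjusted p of 0.000661 for monocyte-like cells and 0.0258 each for eosinophil-like cells and for cells with markers of both macrophages and monocytes.

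Eosinophil-like cells made up 1.51% and 0.329% of the small intestine libraries (55 and 18 cells) and 3.94% and 10.8% of the colon libraries (103 and 262 cells). They were the shallowest class, with a median of 703 to 956.5 UMIs per cell. Fibroblast-like cells were at 0.438% and 0.731% against 2.56% and 2.59%. Plasma cell-like cells made up 49.5% and 5.74% of the small intestine libraries, which lay farther apart than the organ means of 27.6% and 4.90%, and 7.95% and 1.85% of the colon libraries, so that the organs overlapped. B cell-like cells were at 3.15% and 27.5% against 6.39% and 15.6%, and macrophage-like cells at 7.91% and 18.0% against 14.5% and 4.07%. For B cells and macrophages the sign of the difference depended on which library was left out. Dendritic cell-like cells were at 15.98% and 23.1% against 10.1% and 20.7%, a log2 difference of 0.34 ± 1.12 (SE; adjusted p = 0.764 in edgeR), and their sign also turned when colon library 1 was left out.

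**Figure D1:**
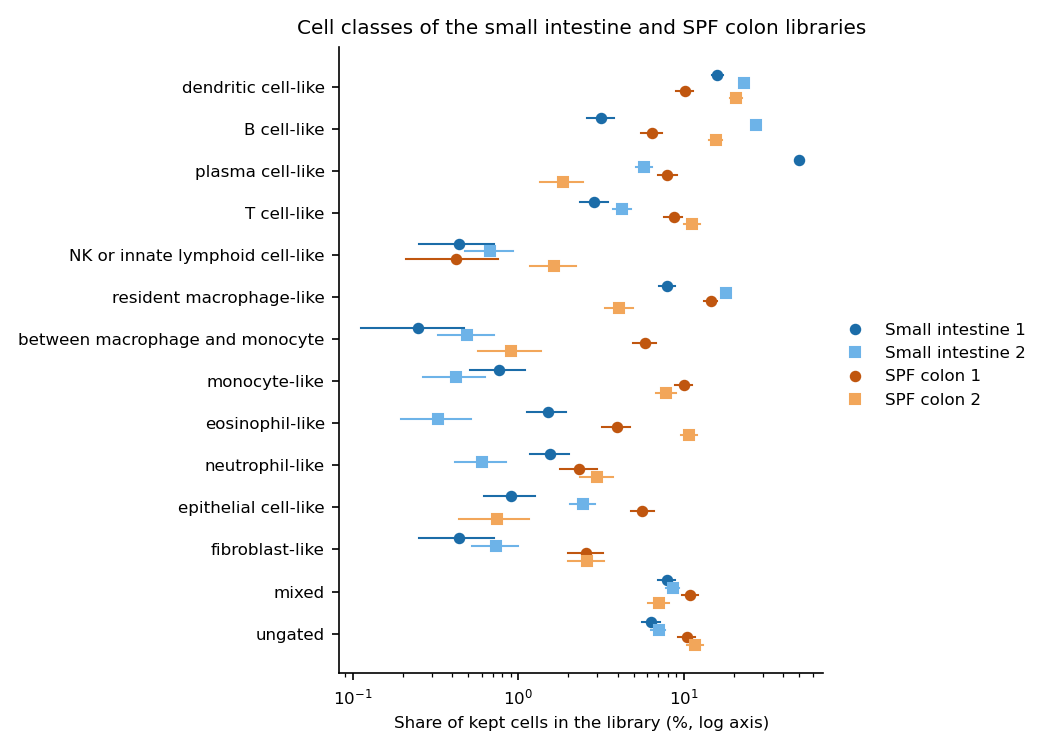
Share of the kept cells of each library (percent, log axis) in each marker-gated class, with circles for library 1 and squares for library 2 and bars for the exact 95% binomial interval, which covers counting error only. Monocyte-like cells sit at 0.766% and 0.420% in the small intestine and at 9.98% and 7.86% in the SPF colon, whereas the plasma cell-like shares of the 2 small intestine libraries, 49.5% and 5.74%, lie farther apart than the organ means of 27.6% and 4.90%.

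Within the dendritic cells the subsets were divided differently in the 2 organs. Type 1 cells made up 10.96% and 7.52% of the dendritic cell-like cells of the small intestine (64 and 95 cells) and 19.6% and 23.8% of those of the colon (52 and 120 cells). A subset named here for Itgae and Plet1, markers of a CD103+ form of type 2 cells, went the other way. Itgae encodes CD103, an integrin that binds E-cadherin on epithelium. The subset made up 35.1% and 17.8% in the small intestine (205 and 225 cells) against 12.1% and 4.17% in the colon (32 and 21 cells). Its cells had at least 2 markers of the list Itgae, Plet1, Cd101, Sirpa, Siglecg and Treml4, and fewer of any other subset list. Neither Itgae nor Plet1 itself was required. The shares of neither subset overlapped between the organs. The other type 2 cells made up 26.0% and 50.4% against 44.5% and 49.8% and did overlap. Ccr7+ mature cells were few, with 27 and 39 cells against 22 and 29, or 4.62% and 3.09% against 8.30% and 5.75%. Unassigned cells made up 23.3% and 21.2% against 15.5% and 16.5%. The shares of mature and of unassigned cells did not overlap either. With 2 libraries a side an exact permutation test cannot go below p = 0.333, and no test is given for these shares.

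**Figure D2:**
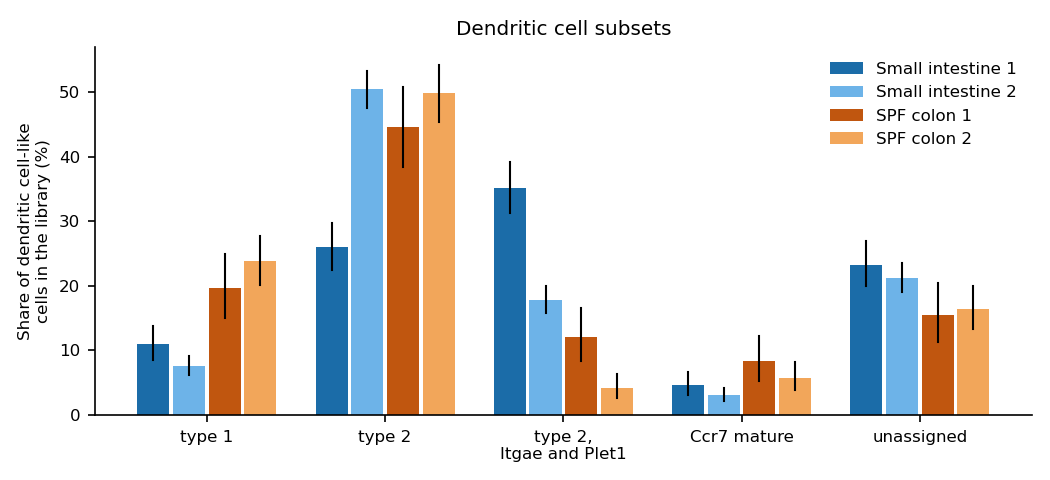
Bars show the share of each dendritic subset among the dendritic cell-like cells of a library (percent), with lines for the exact 95% binomial interval. Type 1 cells lie between 7.52% and 10.96% in the small intestine libraries and between 19.6% and 23.8% in the colon libraries, and the Itgae and Plet1 subset lies between 17.8% and 35.1% against 4.17% and 12.1%.

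Next, UMIs were summed per library over all dendritic cell-like cells and 10956 genes were tested with edgeR. Of 2 genes called at an FDR of 0.05 (0.0183% of those tested; DESeq2 called 211, and 1236, or 11.3%, had an unadjusted p under 0.05), 1 was Cyp26b1 (6:84571414-84593908, minus strand, mm10), the enzyme that breaks down retinoic acid. Its level was 19.3 and 15.9 CPM in the small intestine and 0.917 and 0.423 CPM in the colon, a log2 difference of 4.92 ± 0.44 (SE; adjusted p = 0.0391 in edgeR, 1.02e-08 in DESeq2). The other was Cpm (10:117629500-117687352, plus strand), the membrane-bound carboxypeptidase M, with 96.9 and 103 CPM against 22.6 and 19.7 CPM (log2 difference 2.25 ± 0.23, adjusted p = 0.0492 in edgeR, 1.31e-10 in DESeq2). Both calls rest on colon library 2, without which the adjusted p in edgeR was 0.0902 for Cyp26b1 and 0.130 for Cpm, and the call of Cpm was also lost with the stricter filter on cells (0.0538) and with joint clusters in place of gates (0.0673).

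Aldh1a2, the enzyme that makes retinoic acid, had 24.3 and 25.1 CPM in the small intestine dendritic cells and 6.73 and 6.98 CPM in those of the colon, with an adjusted p of 0.0580 in edgeR and 0.000943 in DESeq2. The libraries of an organ differed by far less than the organs did. Of the 18 genes of the retinoid list, 11 were measured in dendritic cells, of which 6 had a positive and 5 a negative difference, with a median log2 difference of 0.46 against 0.00 over all genes tested. Among the negative members was Rarg, a retinoic acid receptor, with 0.919 and 1.24 CPM against 4.59 and 4.33 CPM (adjusted p = 0.135 in edgeR). Stra6l, a receptor for retinol binding protein that was not on the list and was chosen after its values were seen, had 55.4 and 59.8 CPM against 20.5 and 19.9 CPM (adjusted p = 0.0580 in edgeR, 0.000327 in DESeq2).

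Cyp26b1 and Aldh1a2 were then followed in each dendritic subset, with fits that were added after the data had been seen. Type 1 cells held 138 of the 147 and 182 of the 205 Cyp26b1 UMIs of the small intestine dendritic cells (93.9% and 88.8%), while Ccr7+ mature cells held none. In type 1 cells its level was 133 and 123 CPM in the small intestine against 3.93 and 0.685 CPM in the colon (3 and 2 UMIs), a log2 difference of 6.42 ± 0.48 (adjusted p = 1.13e-05 in edgeR). The call was kept in every alternative run on this subset, with a log2 difference from 4.98 without colon library 2 to 7.40 without colon library 1. Aldh1a2 was highest in the Ccr7+ mature cells, with 243 and 164 CPM in the small intestine (63 and 64 UMIs from 27 and 39 cells) and 15.4 and 29.2 CPM in the colon (3 and 12 UMIs). It was 1 of 6 genes called among the 4116 tested in mature cells (0.146%; DESeq2 called 19), with a log2 difference of 3.05 ± 0.46 and an adjusted p of 0.0357 in edgeR, which rose to 0.350 without colon library 2 and to 0.0909 with the replicate block. Mature cells were few and held 34.1% and 19.8% of the Aldh1a2 UMIs of the small intestine dendritic cells, while the Itgae and Plet1 subset held 31.9% and 16.7% and the other type 2 cells 14.6% and 40.9%. In type 1 cells Aldh1a2 stood at 11.6 and 8.08 CPM against 1.31 and 4.45 CPM, in the other type 2 cells at 14.96 and 22.9 CPM against 9.52 and 7.30 CPM, and in the Itgae and Plet1 subset at 21.03 and 19.8 CPM against 6.91 and 13.65 CPM, and it was called in none of these. Thus most UMIs of the gene for breakdown lay in type 1 cells, whereas those of the gene for synthesis were spread over the subsets, with the highest level in mature cells.

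In type 1 cells 22 of 7778 genes were called (0.283%; 4 higher and 18 lower in the small intestine; DESeq2 called 25, of which 19 were shared). Besides Cyp26b1, Sult1a1, a phenol sulfotransferase, rose from 34.0 and 22.6 CPM in the colon to 79.2 and 123 CPM in the small intestine (adjusted p = 0.0189 in edgeR). Ifitm6, a member of the Ifitm family of membrane proteins, and the ubiquitin ligase gene Nedd4 were the other genes called higher. Lower in the small intestine was Ccl22, a chemokine for CCR4+ regulatory T cells, with 12.6 and 14.8 CPM against 91.6 and 86.3 CPM (log2 difference −2.67 ± 0.31, adjusted p = 0.00139 in edgeR). Ccl22 is also a marker used to gate the mature cells, a list that competed with that of type 1 cells. The part of this gate in the Ccl22 difference was not tested. S100a4, a calcium-binding protein, had 20.3 and 39.1 CPM against 215 and 133 CPM (adjusted p = 0.00492 in edgeR), and Lmna, which encodes lamin A/C, had 172 and 146 CPM against 531 and 715 CPM (0.00483). S100a6, S100a10 and Plec, the cytolinker plectin, were called in the same direction. Irf8, the transcription factor that type 1 cells depend on and a marker used to gate them, was at 1003 and 804 CPM against 1048 and 916 CPM. Leaving out any 1 library left between 16 and 21 of the 22 genes called.

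In type 2 cells other than the Itgae and Plet1 subset 54 of 9144 genes were called (0.591%; 19 higher and 35 lower in the small intestine; DESeq2 called 108, of which 50 were shared). Higher in the small intestine was Ltc4s, the synthase of leukotriene C4, with 63.2 and 51.7 CPM against 10.98 and 10.2 CPM (log2 difference 2.44 ± 0.31, adjusted p = 0.0145 in edgeR). Serpinb6b, a protease inhibitor gene, had 245 and 189 CPM against 35.1 and 45.3 CPM (adjusted p = 0.0130 in edgeR), and Cpm had 84.8 and 111 CPM against 26.4 and 21.9 CPM (0.0218). Plet1, a marker of the subset that was set apart, was itself called higher in these cells (436 and 585 against 187 and 94.9 CPM, adjusted p = 0.0494 in edgeR), and Itgae had 199.5 and 201 against 81.97 and 81.05 CPM (0.0556). In the Itgae and Plet1 subset Ltc4s had 67.0 and 69.7 against 34.5 and 9.10 CPM, Serpinb6b 421 and 264 against 138 and 81.9 CPM and Cpm 130.1 and 127 against 32.2 and 63.7 CPM. The part of such cells in the levels of the other type 2 cells was not tested. Dnase1l3, a secreted DNase, Acp5, an acid phosphatase, Khk, the fructose kinase, and Bmp2, a growth factor, were also called higher. Lower in the small intestine were Tgfbi, an extracellular matrix protein induced by TGF-β, with 28.3 and 43.7 CPM against 194 and 182 CPM (log2 difference −2.36 ± 0.30, adjusted p = 0.0137 in edgeR), and S100a4, with 176 and 204 CPM against 1445 and 887 CPM (0.0120). Lmna, Ahnak, Emp3, S100a6, S100a10, Lgals1 and Plec were called in that direction as well, so that S100a4, S100a6, S100a10, Lmna and Plec were lower in both type 1 and type 2 cells. Fn1 and Ms4a4c, which are monocyte markers here, were among the genes called lower. The summed level of the 10 monocyte markers over all dendritic cells was 2305 and 1589 CPM in the small intestine against 1607 and 827 CPM in the colon. This sum does not weigh the markers evenly, since 4 of the 10 had no UMI in small intestine library 1. It also covers all dendritic cells and not the type 2 cells alone. The part of monocyte RNA in the differences of type 2 cells was not tested. Jchain (405 and 308 against 62.9 and 41.4 CPM) and Igha (2945 and 1327 against 515 and 211 CPM), which are plasma cell transcripts, were called higher in the small intestine, and Igha was found in every class of cells. None of the 54 calls was kept without small intestine library 1 or without small intestine library 2, whereas 54 and 42 were kept without colon library 1 and 2.

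In the Itgae and Plet1 subset none of 8031 genes was called by edgeR (0%; 521 had an unadjusted p under 0.05), and DESeq2 was not run on it. Mmp12, the macrophage elastase, had 183 and 294 CPM in the small intestine against 25.3 and 6.83 CPM in the colon (11 and 3 UMIs; adjusted p = 0.315 in edgeR). In mature cells Cd36, a scavenger receptor and fatty acid transporter, was called higher in the small intestine (189 and 118 against 10.2 and 12.2 CPM, adjusted p = 0.0343 in edgeR). Areg, the growth factor amphiregulin (3.86 and 18.0 against 174 and 112 CPM, 0.0482), and Tgfbi (3.86 and 2.57 against 66.6 and 97.2 CPM, 0.0357) were called lower. All 6 calls in mature cells were lost with the replicate block, and 1, Gm42418, was kept without colon library 2. The genes of the subset fits were picked from the called genes after their values were seen, except for members of the function lists.

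Gm42418 was called across dendritic subsets and in T cells. It is a gene model that overlaps ribosomal RNA sequence, and was at 3168 and 5464 CPM in small intestine type 1 cells against 21650 and 14930 CPM in those of the colon, and it was called lower in the small intestine in type 2, mature and CD8 T cells also. In type 1 cells AY036118 (36.7 and 37.7 against 106 and 148 CPM), Lars2, a mitochondrial leucyl-tRNA synthetase (74.3 and 146 against 348 and 423 CPM), and AC160336.1 (26.07 and 21.6 against 69.3 and 86.6 CPM) were called lower with it. Their part in the other differences was not tested.

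**Figure D3:**
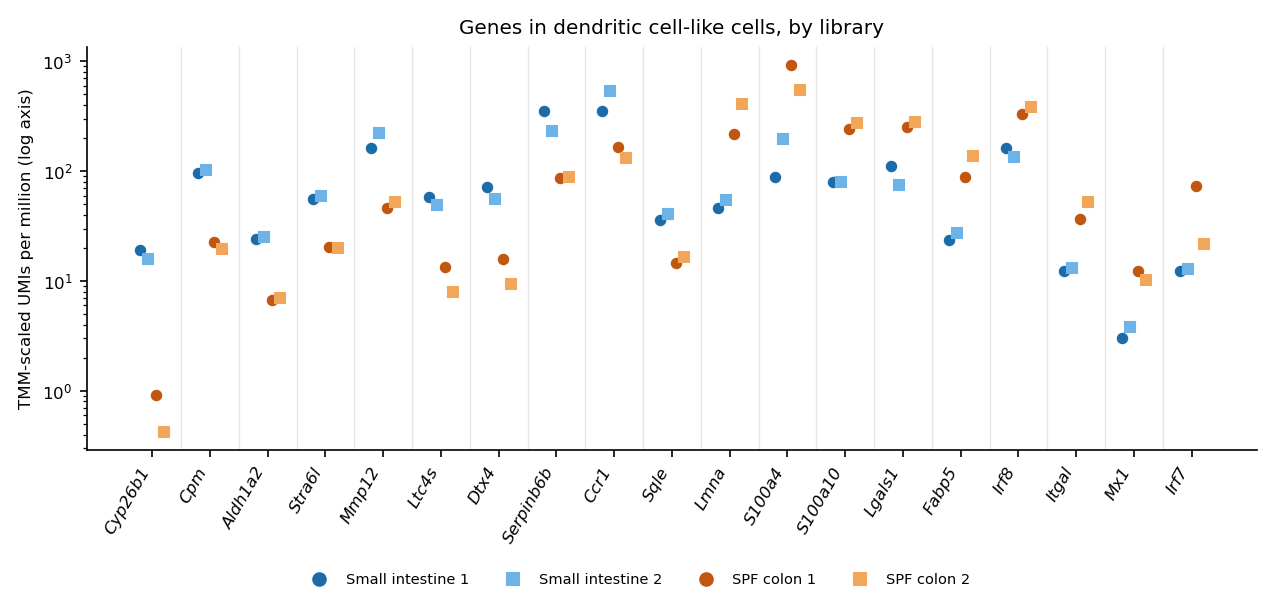
Levels of 19 genes in dendritic cell-like cells (TMM-scaled CPM, log axis) in each library, with circles for library 1 and squares for library 2. Cyp26b1 lies at 19.3 and 15.9 in the small intestine and at 0.917 and 0.423 in the colon, and Lmna lies at 46.1 and 54.7 against 217 and 410.

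Homing and antigen presentation genes were examined in the same cells. Ccr9, which marks lymphocytes and some dendritic precursors directed to the small intestine, had 32.4 and 68.5 CPM in dendritic cells of the small intestine and 14.98 and 23.3 CPM in those of the colon, with an adjusted p of 0.219 in edgeR. Itgal, the LFA-1 integrin chain, had 12.2 and 13.2 CPM against 36.7 and 52.5 CPM (adjusted p = 0.0580 in edgeR). Of 17 homing genes measured, 5 had positive and 12 negative differences, and none was called. The 10 MHC class II genes were split between 5 positive and 5 negative differences, with a median log2 difference of 0.01. H2-Ab1, for instance, stood at 7448 and 8315 CPM against 7317 and 9992 CPM, and these libraries overlapped. Fabp5, a fatty acid binding protein of the lipid list, had 23.5 and 27.2 CPM against 88.0 and 138 CPM (adjusted p = 0.0521 in edgeR, 2.31e-08 in DESeq2), and Sqle, an enzyme of cholesterol synthesis, had 35.8 and 40.9 CPM against 14.7 and 16.4 CPM (0.0943 in edgeR, 0.0119 in DESeq2).

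Resident macrophage-like cells were compared in the same way. Of 8824 genes tested, edgeR called 0 (0%), 768 (8.7%) had an unadjusted p under 0.05 and DESeq2 called 62. C6, a component of the complement membrane attack complex, had 220 and 113 CPM in the small intestine against 20.04 and 16.3 CPM in the colon, and Mmp9, a gelatinase that is also a neutrophil marker, had 830 and 365 CPM against 37.5 and 9.29 CPM, each with an adjusted p of 0.0698 in edgeR. In both genes the libraries of the organs were clearly apart. The summed neutrophil markers, Mmp9 among them, were at 929 and 485 CPM in small intestine macrophages against 331 and 62.5 CPM in those of the colon, and their part in the level of Mmp9 was not tested. Timd4, a receptor for dying cells that marks long-lived tissue macrophages, had 67.3 and 24.7 CPM against 4.79 and 9.29 CPM (adjusted p = 0.127 in edgeR, 0.00816 in DESeq2), and Gpx3, an extracellular glutathione peroxidase, had 205 and 111 CPM against 27.0 and 6.97 CPM (0.0755 in edgeR). Of the 11 measured genes of resident macrophages, 9 had positive and 2 negative differences, with a median log2 difference of 1.00 against −0.01 over all genes tested.

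The 2 negative members included Retnla, the secreted protein RELMα, which had 0.601 and 30.3 CPM in the small intestine and 109 and 949 CPM in the colon (adjusted p = 0.161 in edgeR). Ccl5, a chemokine for T cells and monocytes, had 23.4 and 63.4 CPM against 163 and 516 CPM (0.113 in edgeR), and Gpr35, a receptor for tryptophan metabolites, had 13.2 and 16.3 CPM against 65.3 and 58.1 CPM (0.0698 in edgeR). S100a4 had 3.003 and 37.9 CPM against 290 and 323 CPM. Il10, the anti-inflammatory cytokine, was high in macrophages of both organs, with 1081 and 747 CPM against 588 and 2414 CPM, and its sign turned without colon library 2. Plasma cell RNA was uneven here too, since Igha in macrophages was at 19460 CPM in small intestine library 1 but at 930 to 1188 CPM in the other three. C6, Gpx3, Gpr35 and S100a4 were chosen after their values were seen.

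**Figure D4:**
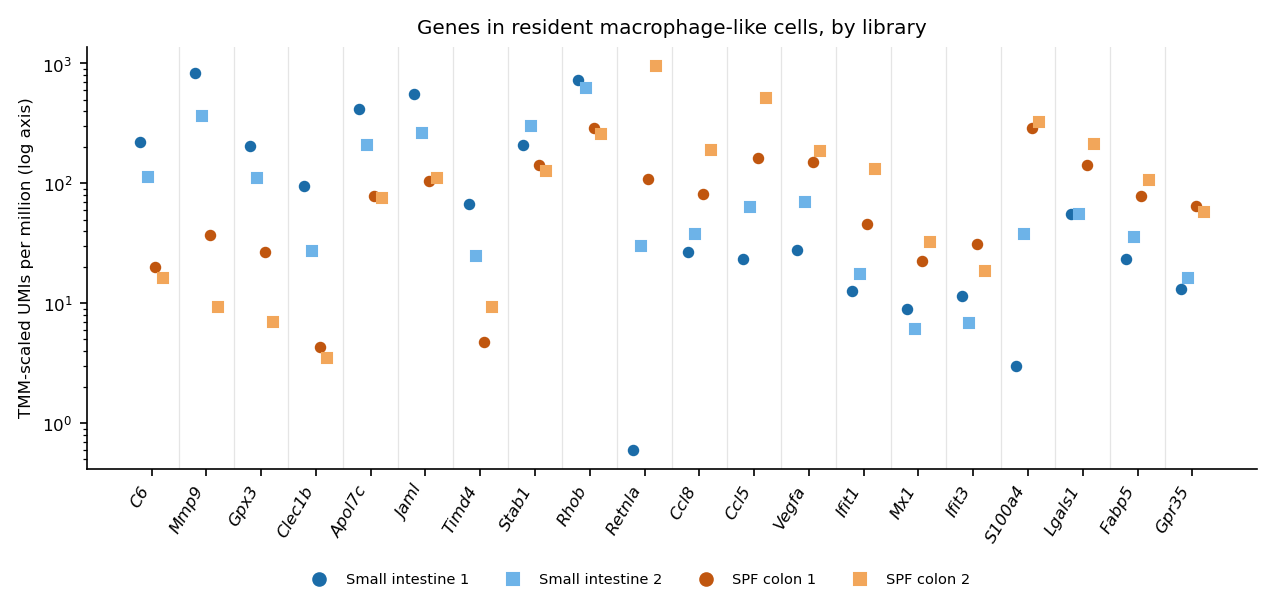
Levels of 20 genes in resident macrophage-like cells (TMM-scaled CPM, log axis) in each library. C6 and Mmp9 lie higher in both small intestine libraries (220 and 113, 830 and 365) than in the colon (20.04 and 16.3, 37.5 and 9.29), and Retnla and S100a4 lie lower.

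Monocyte-like cells were compared with less depth, because the small intestine held only 28 and 23 of them. No gene of 6800 was called by edgeR (0%; 427, or 6.28%, had an unadjusted p under 0.05, DESeq2 called 0). Ace, the angiotensin-converting enzyme, had 195 and 165 CPM in the small intestine (33 and 22 UMIs) against 27.7 and 50.01 CPM, with an adjusted p of 0.203 in edgeR. Lmna had 23.6 and 22.6 CPM (4 and 3 UMIs) against 195 and 218 CPM (0.0653 in edgeR). Of 17 cytokine genes measured, 14 had a negative and 3 a positive difference (median log2 difference −0.39), 5 had an unadjusted p under 0.05 and none was called. Over all genes tested, 3626 of 6800 were negative, with a median of −0.05. The list members Cxcl1 (189 and 233 against 517 and 690 CPM) and Tnf (313 and 271 against 497 and 931 CPM), and Il10, which is not on that list (230 and 211 against 445 and 872 CPM), had lower levels in both small intestine libraries, with adjusted p of 0.360 to 0.532 in edgeR. Ace and Lmna were chosen after their values were seen.

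Interferon-stimulated genes had lower levels in the small intestine in most, but not all, cell types. In macrophages all 21 measured members had a negative difference, with a median log2 difference of −0.90, and 10 of them had an unadjusted p under 0.05, against 8.7% of all genes tested, of which 4465 of 8824 were negative. In dendritic cells 19 of 21 were negative (median −0.76), and 7 had an unadjusted p under 0.05, against 11.3% of all genes tested, of which 5490 of 10956 were negative. In T cells 15 of 15 were negative (median −0.59, 3 with such a p against 2.28% of all genes), in B cells 10 of 10 (median −0.48, 1 against 2.84%) and in neutrophils 7 of 8 (median −0.72, 3 against 6.04%). In plasma cells the list was split, with 7 negative and 5 positive members, and in monocytes it was even, with 10 negative and 11 positive members (median 0.04). No member was called by edgeR in any of these classes, and classes of 1 library share its RNA, so that their counts do not add to each other. No test compared the list between classes.

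Ifit1, an antiviral protein that binds foreign RNA and the first promoter shown above, had 12.6 and 17.6 CPM in macrophages of the small intestine against 46.2 and 131 CPM in those of the colon (log2 difference −2.47 ± 0.48, adjusted p = 0.108 in edgeR, 0.00142 in DESeq2). In the type 2 dendritic subset it was called, with 3.88 and 1.73 CPM against 23.4 and 17.8 CPM (log2 difference −3.05 ± 0.47, adjusted p = 0.0293 in edgeR), although this call too was lost without either small intestine library. In T cells it had 3.97 and 0.856 CPM (3 and 1 UMIs) against 17.8 and 54.2 CPM, a difference whose sign turned when T cells were taken from joint clusters. In these 3 cell types the Ifit1 levels of the organs did not overlap. The share of all genes tested without overlap was not counted. Ifit1 was not lower everywhere. In monocytes it had 106 and 37.6 CPM against 41.8 and 4.94 CPM (log2 difference 1.67 ± 0.79, not called by edgeR), in the Itgae and Plet1 subset 0.713 and 15.04 CPM against 6.91 and 0 CPM, and in type 1 dendritic cells, unscaled, 0 and 14.04 CPM against 3.91 and 0.346 CPM, and in each of these the organs overlapped. Ifit3, its partner, had 11.4 and 6.90 CPM against 31.4 and 18.6 CPM in macrophages (adjusted p = 0.231 in edgeR). Isg15, a ubiquitin-like protein, had 326 and 107 CPM in neutrophils of the small intestine against 828 and 766 CPM in those of the colon (0.336 in edgeR). Rsad2, which encodes viperin, had 10.6 and 11.1 CPM in T cells against 33.4 and 45.6 CPM (0.999 in edgeR), but in macrophages 214 and 107 CPM against 171 and 576 CPM, which overlapped and were added after the values were seen. Mx1, a GTPase that blocks viruses, had 9.01 and 6.07 CPM against 22.7 and 32.5 CPM in macrophages (0.132 in edgeR) and 3.02 and 3.81 CPM against 12.2 and 10.2 CPM in dendritic cells (0.0962 in edgeR).

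Plasma cells of both organs were largely of 1 isotype. Igha was the leading heavy chain in 98.1% and 94.9% of the plasma cell-like cells of the small intestine and in 91.3% and 97.8% of those of the colon, and kappa was the leading light chain in 95.4% and 85.0% against 91.8% and 84.4%. None of 9150 genes was called by edgeR (0%; 301, or 3.29%, had an unadjusted p under 0.05, DESeq2 called 28). Ccr9 had 226 and 232 CPM in the small intestine plasma cells and 77.3 and 19.8 CPM in those of the colon (6584 and 1080 against 312 and 18 UMIs), a log2 difference of 2.13 ± 0.51 with an adjusted p of 0.931 in edgeR and 0.00719 in DESeq2. Both small intestine libraries agreed within a few CPM, and the colon libraries lay below them and apart from each other. Among Igha-led plasma cells alone the levels were 224 and 230 CPM against 83.5 and 19.6 CPM, in a fit added after the data had been seen. Ccr10, the receptor that directs IgA plasma cells to mucosa in general, had 232 and 213 CPM against 208 and 180 CPM (adjusted p = 1.00 in edgeR). Lower in the small intestine were Gbp2, an interferon-induced GTPase, with 16.1 and 12.0 CPM against 44.1 and 66.0 CPM (0.733 in edgeR, 0.00312 in DESeq2), and Ly6a (Sca-1), with 161 and 103 CPM against 335 and 347 CPM (0.874 in edgeR, 0.0188 in DESeq2). Ccr10, Gbp2 and Ly6a were chosen after their values were seen.

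The same receptor was followed in T cells. Ccr9 had 287 and 180 CPM in small intestine T cells and 89.9 and 19.0 CPM in colon T cells, so that the organs did not overlap, with an unadjusted p of 0.0105 and an adjusted p of 0.999 in edgeR. None of 8107 genes was called by edgeR in T cells (0%; 185, or 2.28%, had an unadjusted p under 0.05, DESeq2 called 0). In fits added after the data had been seen, CD8 T cells had 42.2 and 180 CPM of Ccr9 against 18.0 and 2.95 CPM, while in CD4 T cells the organs overlapped (251 and 62.3 against 173 and 21.6 CPM). CD4 T cells in these fits leave out only cells gated as regulatory, with a Foxp3 UMI and at least 2 markers of Foxp3, Ctla4, Il2ra, Ikzf2 and Tnfrsf4. The cells so gated numbered 6 and 7 in the small intestine and 13 and 25 in the colon. Regulatory cells with no Foxp3 UMI would stay among the CD4 T cells, where Ctla4 was at 1802 and 930 against 2188 and 1357 CPM. The part of such cells in the CD4 values was not tested. Il10 had 67.7 and 35.0 CPM in CD4 T cells of the small intestine against 442 and 337 CPM in those of the colon, on 10, 9, 82 and 203 UMIs (log2 difference −2.98 ± 0.46, adjusted p = 0.138 in edgeR). Over all T cells Il10 was at 62.1 and 58.2 CPM against 109 and 483 CPM, and, of the list of T cell effector genes, the inhibitory receptors Ctla4 (633 and 488 against 839 and 1021 CPM) and Lag3 (39.7 and 59.95 against 138 and 70.4 CPM) also had lower levels in both small intestine libraries. That list was split, with 15 positive and 13 negative of 28 members measured (median log2 difference 0.03). Ifng (460 and 153 against 204 and 219 CPM) and Il17a (124 and 95.9 against 43.8 and 214 CPM) overlapped. Both were chosen after their values were seen. Among T cells the regulatory share was 5.71% and 3.004% against 5.73% and 9.16%, and the γδ share was 18.1% and 9.87% against 24.2% and 5.13%. The only gene called in CD8 T cells was Gm42418 (1 of 4034 genes, 0.0248%), and in CD4 T cells edgeR called none of 3642 (0%; 248 had an unadjusted p under 0.05). The summed macrophage markers in T cells were 145 CPM in colon library 2 and 37.4 to 47.3 CPM in the other three, and their part in the T cell values was not tested.

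In B cells 1 of 7971 genes was called (0.0125%; 226, or 2.84%, had an unadjusted p under 0.05, DESeq2 called 1). This was Serpinb2, an inhibitor of plasminogen activators that is named here as the only call, with 0 and 0.378 CPM in the small intestine (0 and 2 UMIs) against 18.1 and 29.6 CPM in the colon (13 and 63 UMIs; adjusted p = 0.0476 in edgeR). Serpinb2 was far higher in eosinophil-like cells of the same libraries, and UMIs of it were also found in plasma, T, macrophage and monocyte-like cells of the colon. The call in B cells was lost without colon library 2 (adjusted p = 0.998 in edgeR), with joint clusters (0.102) and with called doublets removed (0.132). Ccr7 in B cells was at 738 and 1243 CPM against 892 and 1034 CPM and overlapped, a gene chosen after its values were seen.

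Eosinophil-like cells had the largest share of called genes among the main classes. Their summed neutrophil markers stood at 6659 and 5122 CPM in the small intestine and 9511 and 5852 CPM in the colon. Their summed eosinophil markers were lower, at 2664 and 1929 against 2628 and 2141 CPM. Summed plasma cell markers were at 3520 and 532 against 737 and 360 CPM. The part of such RNA in the differences of eosinophil-like cells was not tested. These cells hold little RNA and were gated with at least 1 marker, those with 1 marker only up to 2500 UMIs, and their sums were 42046 and 15032 UMIs in the small intestine and 90947 and 263844 in the colon. Of 1245 genes tested, 24 were called (1.93%; 8 higher and 16 lower in the small intestine; 201, or 16.1%, had an unadjusted p under 0.05, and DESeq2 called 6). Ffar2 (7:30818348-30823775, minus strand), a receptor for short-chain fatty acids made by bacteria, had 679 and 593 CPM in the small intestine (21 and 7 UMIs) against 14.7 and 20.3 CPM in the colon (1 and 4 UMIs), a log2 difference of 5.00 ± 0.68 with an adjusted p of 0.00136 in edgeR. Adamdec1, a secreted metalloprotease of the gut, had 2424 and 3049 CPM against 441 and 608 CPM (0.00275 in edgeR). Il1b, the cytokine interleukin 1β, had 1551 and 1101 CPM against 470 and 365 CPM (0.0199 in edgeR). Egr1, Hes1 and Gsn, which encode an immediate early transcription factor, a target of Notch and the actin-severing gelsolin, were called higher as well. Egr1 belongs to a list of 17 immediate early and heat shock genes that respond to tissue dissociation, of which 10 of 14 measured in eosinophil-like cells had a positive difference (median log2 difference 0.54, 1 called), against 607 of all 1245 genes tested. In macrophages 14 of 17 were positive (median 0.48, 4 higher with an unadjusted p under 0.05), against 4359 of all 8824 genes, 378 with such a p. In monocytes 13 of 17 were positive (median 0.17, 5 with such a p), against 3174 of 6800, 136 with such a p. In neutrophils 13 of 15 were positive (median 0.61), against 873 of 1771, and in dendritic cells 9 of 17 (median 0.01), against 5466 of 10956. In B cells 13 of 17 were positive (3893 of all 7971), in plasma cells 12 of 17 (4646 of 9150) and in T cells 11 of 17 (4083 of 8107). The summed level of the list in eosinophil-like cells was 16620 and 24550 CPM in the small intestine against 18990 and 14820 CPM in the colon, which overlapped, and its part in these differences was not tested.

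Several genes of colon eosinophil-like cells had no UMI in those of the small intestine. Ccl9 (11:83572919-83578636, minus strand), a chemokine of myeloid cells, had 0 UMIs in both small intestine libraries against 1014 and 1063 CPM in the colon (69 and 210 UMIs), at least 5.92-fold lower when each small intestine library is set to 3 UMIs (adjusted p = 0.00136 in edgeR). Retnla had 0 UMIs against 794 and 405 CPM (at least 3.42-fold lower) and Lmna 0 UMIs against 412 and 441 CPM (at least 2.43-fold lower). Fgfr1 and Cdk5r1 were likewise at 0 UMIs in both small intestine libraries. Serpinb2 had 1067 and 678 CPM against 4115 and 6870 CPM (adjusted p = 0.00784 in edgeR), Thbs1, the matrix protein thrombospondin 1, 1002 and 1016 CPM against 3483 and 5235 CPM (0.0193 in edgeR), and Ccl6, a chemokine of the same family as Ccl9, 1713 and 1440 CPM against 4908 and 9367 CPM (0.0195 in edgeR). Tagln2, Map2k3, Gpx4 and Klf2 were called lower too, and Ccl6 and Klf2 were chosen after their values were seen. S100a6 and Vim, which encode a calcium-binding protein and the filament protein vimentin, were called lower as well and were also chosen after the calls were seen.

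These calls depend on the definition of the cells and on few UMIs. Without small intestine library 1 or 2 edgeR called 0 genes, and with 2 markers required it called 0 of 604 genes tested, where Ccl9 had an adjusted p of 0.184 in edgeR. With no UMI limit it called 7, of which 4 were among the 24. With cells taken from joint clusters instead of gates it called 112, and these included all 24. The direction of Ccl9 and Serpinb2 did not turn in any of these settings. That of Ffar2 did not turn without small intestine library 2, with no UMI limit or with joint clusters, and Ffar2 had no value in the other two.

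**Figure D5:**
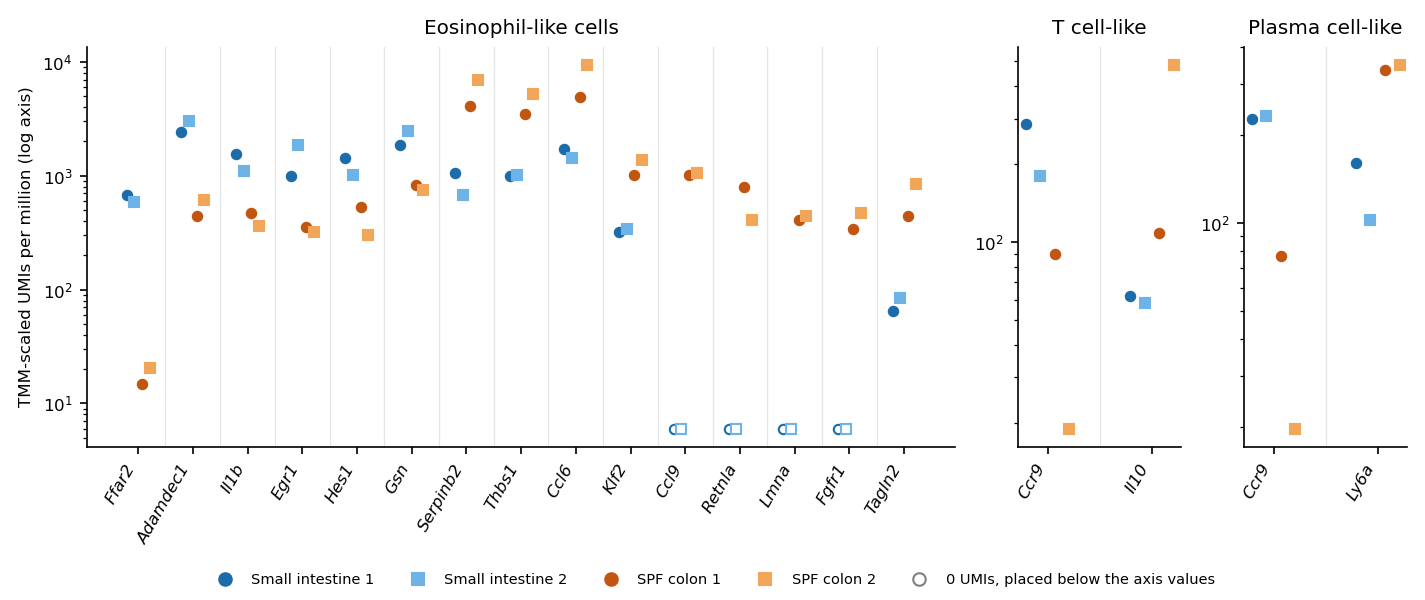
Levels of 15 genes in eosinophil-like cells, and of Ccr9 with Il10 in T cell-like cells and Ccr9 with Ly6a in plasma cell-like cells (TMM-scaled CPM, log axes, which differ between panels), in each library, with open symbols for 0 UMIs. Ffar2 lies at 679 and 593 in the small intestine and at 14.7 and 20.3 in the colon, Ccl9 has no UMI in the small intestine, and Ccr9 lies higher in both small intestine libraries in T cells and in plasma cells.

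In neutrophil-like cells none of 1771 genes was called by edgeR (0%; 107, or 6.04%, had an unadjusted p under 0.05, DESeq2 called 0). Tlr2, a receptor for bacterial lipoproteins, had 326 and 172 CPM in the small intestine against 869 and 742 CPM in the colon, on 31 and 8 against 105 and 125 UMIs (adjusted p = 0.336 in edgeR). Mmp9, a granule enzyme and a marker used to gate these cells, had 2522 and 2210 CPM against 1590 and 1015 CPM. The part of this gate in the Mmp9 difference was not tested. The organs did not overlap in either gene.

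Summed over all cells of each library, 14660 genes were tested and edgeR called none (0%; 1025, or 6.99%, had an unadjusted p under 0.05, DESeq2 called 355). The 12 measured immunoglobulin constant and joining chain genes had a median log2 difference of 1.27, and small intestine library 1, in which plasma cell-like cells made up 49.5% of the cells, stood apart. In bulk sums like these, fewer cells of a type and less RNA per cell cannot be told apart. The epithelial lists mostly followed the labels, with 16 of 19 small intestine genes positive (median 2.43) and 9 of 11 colon genes negative (median −1.81).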

How the data were processed

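Single-cell 3' libraries (10x v3 chemistry) of CD11b+ gut cells were analysed from the matrices the authors deposited, which hold UMI counts per gene and barcode with no normalization. Per the submitters' processing notes and the file headers, reads were mapped to mm10 with STAR 2.5.1b inside Cell Ranger (3.0.2 in the matrix header). The cell filter (at most 15% mitochondrial UMIs, at least 200 genes) is that of the study's methods. The study tested single cells, whereas here UMIs were summed per library and class, because cells are not replicates.

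Cells were gated with 13 marker lists (at least 3 distinct markers and a lead of 2). Eosinophils needed 1 marker, with at most 2500 UMIs where only 1 was found, a limit set after the cells had been seen. Cells between 2 lists were called mixed. Scrublet called 13 doublets of 14170 cells, too few to rely on. Dendritic subsets took the list with most markers, at least 2. The members, gene lists and tests were chosen with earlier results of these data known. Sums were tested with edgeR 4.0.16 (filterByExpr, TMM, quasi-likelihood, Benjamini-Hochberg, FDR 0.05) under R 4.3.3, small intestine minus colon, with DESeq2 1.42.0 as the alternative. CPM are TMM-scaled where tested and unscaled for labels, marker sums and UMIs of untested classes. Named genes were, per class, the 10 called genes with the largest change in each direction (at least 50 CPM, no overlap between organs, at least 0.5 of the level over all cells, no gate marker), and up to 4 members of each function list by adjusted p. Other named genes are marked in the text, and some results that the rule names are not reported here. The libraries held 20568541 to 46581073 UMIs. Replicate libraries differed beyond counting noise (chi-square per degree of freedom 719 and 131) and were not duplicates. The test was checked on counts simulated at the real library sizes and mean levels with a common dispersion. Over all cells it recovered 1.52% of 2-fold and 39.4% of 8-fold changes. For 2-fold changes the share was 45.5% in B cells and 28.8% in dendritic cells. In the other classes it lay between 1.67% (monocytes) and 17.2% (neutrophils). A gene that was not called is therefore not shown to be equal in the organs. Levels said not to overlap describe the 4 libraries only. An exact permutation test of 2 libraries against 2 cannot go below p = 0.333, and the share of all genes without overlap was not counted. Intervals of shares are exact (Clopper-Pearson, 95%) and cover counting error only. Promoters are from RefSeq (GRCm38.p6) and gene coordinates from GENCODE vM21.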

Additional observations from a re-analysis of the deposited data

How the results depend on the processing

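The class results were recomputed with DESeq2, without the filter on low counts, with a stricter cell filter, without immunoglobulin genes, with 4 markers, with joint clusters, with doublets removed, with a replicate block and without each library, and the dendritic subsets with those that applied. Of 2468 recomputed differences of 232 gene results 6 turned sign, and of 189 of the 14 classes 9. Composition calls were 2 with the stricter filter and 3 with DESeq2. The B cell difference was −0.0956 with the replicate block and −1.80 to 1.32 without each library. Dendritic cells were at −0.145 when thinned to 1000 UMIs and at −0.0849 to 0.948 without each library, macrophages at −0.234 to 1.67, NK and innate lymphoid cells at −1.55 to 0.408 and epithelial cells at −1.81 to 1.18. Values that turned without a library were those without small intestine library 2 (B −1.80, macrophages −0.234), colon library 1 (B −0.0253, dendritic −0.0849, epithelial 1.18) and colon library 2 (macrophages −0.164, NK and innate lymphoid 0.408). H2-Ab1 in dendritic cells ranged from −0.34 to 0.11, Il10 in macrophages from −1.41 to 0.65, Ighg2c in plasma cells from −7.68 to 3.95 and Iglc1 in plasma cells from −2.29 to 0.48 (0.039 without small intestine library 1), and Ifit1 in T cells was at 0.23 with joint clusters. The causes were not tested.

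Without the filter on low counts edgeR called 1 gene over all cells, 635 in dendritic, 29 in B, 157 in plasma, 64 in T, 288 in macrophage, 39 in eosinophil and 10 in neutrophil cells, and 130, 413 and 78 in type 1, type 2 and mature dendritic cells. DESeq2 called 355 over all cells, 211 in dendritic, 28 in plasma, 62 in macrophage and 6 in eosinophil cells, and 108 and 19 in type 2 and mature dendritic cells. The stricter cell filter gave 1 call in dendritic and 4 in eosinophil cells, leaving out immunoglobulin genes 13 and 38, the gate of 4 markers 14 and 2, and joint clusters 1 and 112, with 1 in macrophage and 0 in B cells. Removing doublets gave 0 in B cells. Chosen after seeing the data, eosinophils with no UMI limit gave 7 and with 2 markers 0. Leaving out 1 library gave 1 to 454 calls in dendritic (1 without colon library 2), 18 to 91 in B, 4 to 65 in plasma, 2 to 104 in T, 8 to 161 in macrophage, 10 to 192 in monocyte, 0 to 118 in eosinophil and 0 to 12 in neutrophil cells, 54 to 67 in type 1, 0 to 413 in type 2 and 1 to 87 in mature dendritic cells.

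The labels number the libraries 1 and 2 in both organs, and the numbers share no stated animal or day. Deviations of same-numbered libraries correlated at 0.116 over all cells, 0.233 in dendritic cells and 0.313 and 0.355 in plasma and T cells. With the replicate block edgeR called 3 genes over all cells, 443 in dendritic, 3 in B, 139 in plasma, 0 in T, 90 in macrophage, 51 in monocyte, 0 in eosinophil and 0 in neutrophil cells, and 155, 637 and 0 in type 1, type 2 and mature dendritic cells. With 2 pairs these numbers are not taken as a pairing. Eosinophil-like cells had a median of 703 to 956.5 UMIs a cell. In counts simulated at their sums, 13.3% of 2-fold, 83.9% of 4-fold and 96.9% of 8-fold changes were recovered. Which genes this depth kept from being called in the real counts was not tested.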
